A study of Saccharomyces cerevisiae with 15 samples.

Results

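The genes described here encode proteins of the mitochondrial ribosome of budding yeast. They were chosen by symbol, as every measured gene named MRPL, MRPS or RSM followed by a number, and these were 54 of the 5588 genes measured. MRPL genes, 34 of the 54, encode proteins of the large subunit, and the MRPS and RSM genes, 20 of the 54, encode proteins of the small subunit. Each member was read by 1 probe set, and all 810 member values, 54 on each of 15 arrays, carried a present call. Every member was thus detected on every array, while protein and assembled ribosomes were not measured.

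The mitochondrial ribosome translates the small set of messages encoded by mitochondrial DNA, most of them for core subunits of the respiratory chain and the ATP synthase. Nearly all of its own proteins are encoded in the nucleus, made on cytosolic ribosomes and imported. Some belong to families found in every ribosome, some to families shared with bacteria alone, and others occur only in mitochondria. In budding yeast the RNA-binding protein Puf3 is known to bind many of these messages, and the genes are known to be regulated apart from those for the cytosolic ribosome.

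RNA was measured on 15 Affymetrix arrays in 5 groups of 3. The groups were wild type without treatment at 0 min, wild type with arsenate (AsV, pentavalent arsenic) at 60 min, and the mutants yap1, yap8 and y1y8, each with arsenate at 60 min. The mutants lack the oxidative stress regulator Yap1, the arsenic regulator Yap8 (gene ARR1), or both. The dose of 2 mM stands in the series design text, which speaks of growth in arsenate up to exponential phase and of double mutant cells carrying plasmids. The labels tie neither plasmid nor this dose to a group, and they name no strain, so whether each mutant is 1 clone is unknown here. No mutant was measured without arsenate, and no wild type was measured at 60 min without it, so time and arsenate cannot be told apart in the first comparison.

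Median signal over yeast probe sets ran from 548.1 to 933.8 per array, and arrays of one group correlated with each other at r = 0.9802 to 0.9946 over the genes, which are no replicates. As a check of the labels, the YAP1 signal averaged 3279 in treated wild type, 596 in yap1 and 589 in y1y8, and every yap8 and y1y8 array called ARR1 absent. Untreated wild-type replicate 2 stood apart for the genes described here. It was the highest of the 3 untreated arrays for 43 of the 54 members, against 39.5% of all genes, so the counts against the untreated group, and the calls that changed, are also given without it. The labels do not say that replicates were separate cultures, so p-values measure the spread between these arrays. All values below are quantile-normalized. Changes are log2 differences ± SE with n = 3 arrays a group, taken from a limma fit over all 5588 genes, and a gene is said to rise or fall where its adjusted p was under 0.05. Normalization puts all arrays on one level, so changes are relative to the other probe sets of the array.

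In wild-type cells, treated and untreated arrays were compared to ask how these genes stood after 60 min in arsenate. Messages for the mitochondrial ribosome moved little. Of the 54 members 31 changed, 4 higher and 27 lower, while 81.2% of all genes changed, 41.9% higher and 39.2% lower. The median log2 change of the members was -0.19, against 0.03 for all genes, and their median absolute change was 0.24, against 0.70 for all genes. A change of at least 2-fold was called for 1 member, MRPL39, against 34.9% of all genes. A change of at least 1.5-fold was called for 9 members, against 56.6% of all genes. The 95% interval of the change lay inside 2-fold in either direction for 52 of the 54 members and for 53.5% of all genes.

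**Figure D1:**
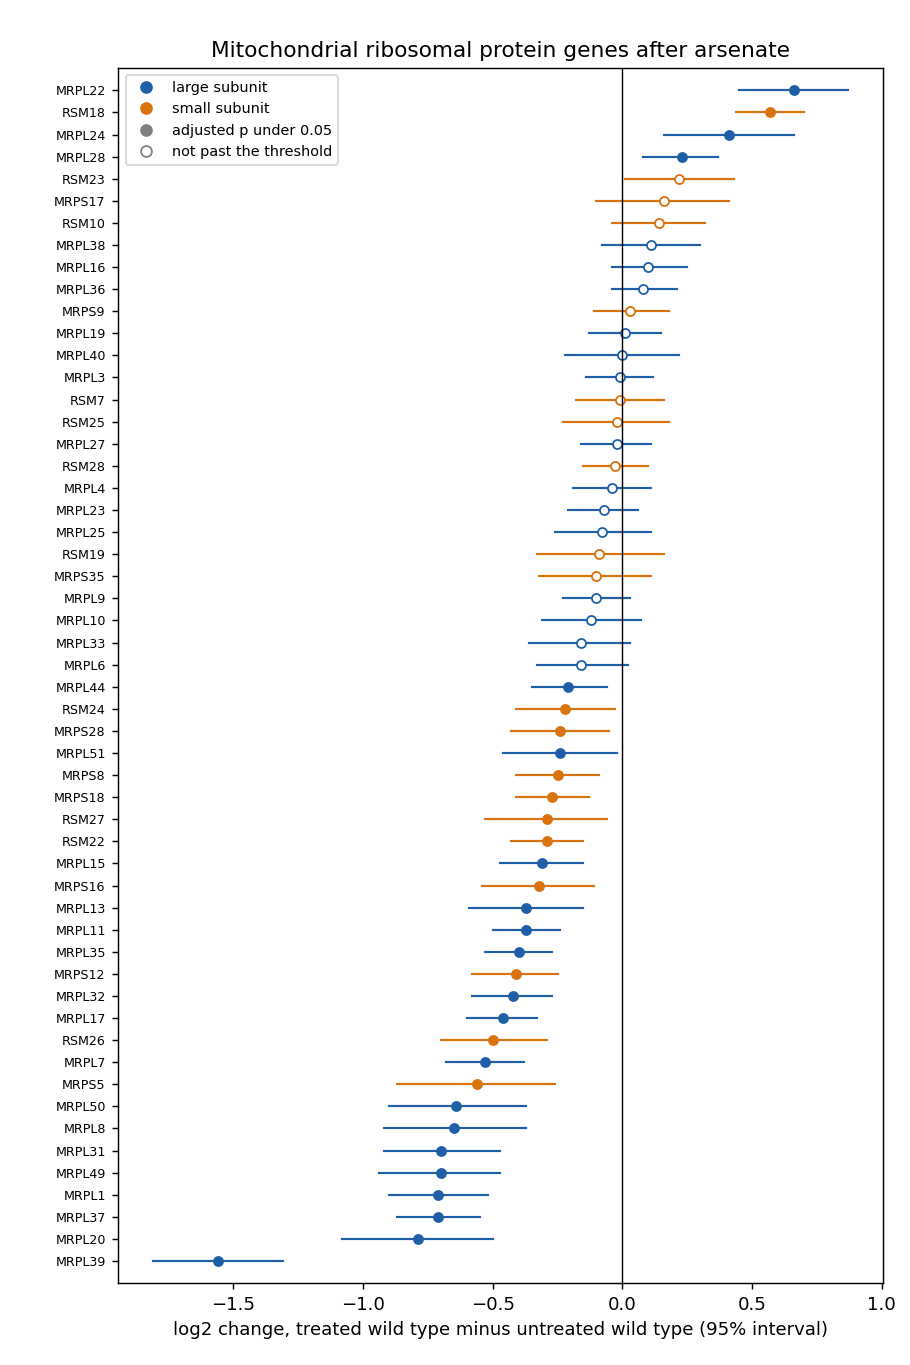
The log2 change of each of the 54 members (treated minus untreated wild type, x axis) is drawn as a point with its 95% interval, blue for the large and orange for the small subunit, filled where adjusted p was under 0.05. Most points lie within 0.5 of 0, MRPL39 lies apart at -1.56, and 4 filled points lie above 0.

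The cytosolic ribosome gave a different picture on the same arrays. Of 129 cytosolic ribosomal protein genes 127 fell and 1 rose, with a median log2 change of -2.09. Of these, 118 fell by at least 2-fold. Many cytosolic genes are near-identical pairs whose probe sets can share signal, so their single values are less certain than their common direction. Both kinds of ribosomal protein message are set side by side by counts and medians alone, without a test of the difference.

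**Figure D2:**
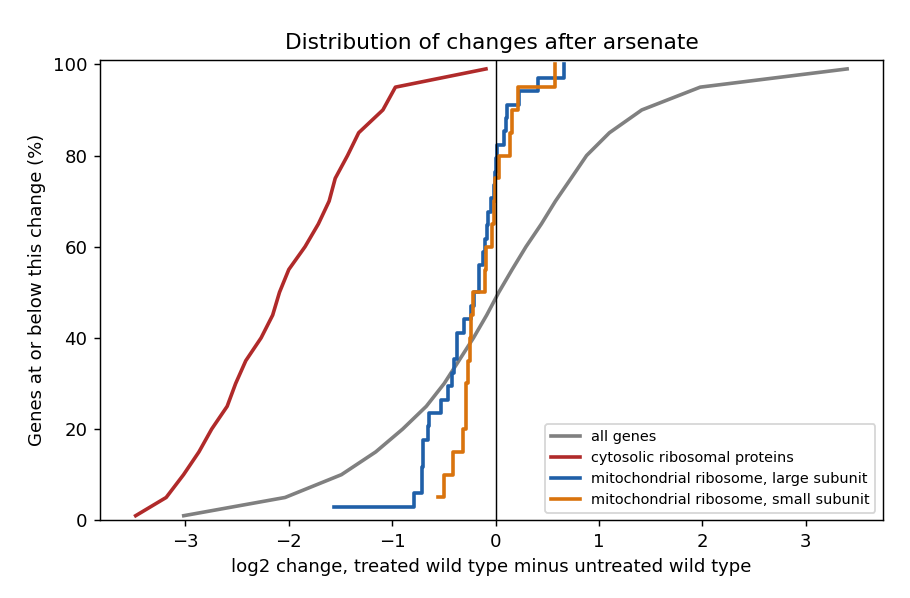
The curves give the percentage of genes (y axis) at or below each log2 change (x axis) for treated against untreated wild type, in all genes, cytosolic ribosomal proteins and the large and small subunit members. The curves of both mitochondrial subunits are steep and close to 0, with medians of -0.19 and -0.16, while the cytosolic curve lies to the left of both, with a median of -2.09.

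Among large subunit genes MRPL39 fell most. It encodes the mitochondrial member of ribosomal protein family bL33, a family shared with bacteria. Its signal on the 3 untreated arrays was 1522, 1778 and 1523, and on the 3 treated wild-type arrays 462, 626 and 556. The lowest untreated array thus read more than double the highest treated one, and the groups were far apart. The log2 change was -1.56 ± 0.11, a 2.95-fold fall (adjusted p = 2.29e-08). The signal stayed low in the mutants, at 482 to 625 in yap1, 529 to 549 in yap8 and 571 to 630 in y1y8. The gene lies between SPT5, whose message fell by 0.63, and the sterol methyltransferase gene ERG6, whose message fell by 1.33.

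The next largest falls among members lay between -0.79 and -0.70. MRPL20 (mL58, a mitochondrial family) read 908, 998 and 936 untreated and 694, 492 and 478 treated, a change of -0.79 ± 0.13 (adjusted p = 9.49e-05). Treated replicate 1 was well above the other treated arrays but still below every untreated one. MRPL37 (mL54) read 959, 1117 and 1010 untreated and 621, 661 and 600 treated, a change of -0.71 ± 0.08 (adjusted p = 9.56e-07). MRPL1, of the family uL1 that forms the mobile L1 stalk of the ribosome, read 944, 1077 and 983 untreated and 628, 620 and 592 treated, a change of -0.71 ± 0.09 (adjusted p = 5.11e-06). For both genes all treated arrays lay close together and far below the untreated ones. MRPL49 (bL21) fell by 0.70 ± 0.11 (adjusted p = 4.1e-05), from 1376 to 1510 untreated to 784 to 982 treated.

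Others of the large subunit with standard roles moved less. MRPL32, the bL32 protein that the m-AAA protease of the inner membrane processes before the yeast ribosome can be assembled, fell by 0.42 ± 0.07 (adjusted p = 0.000114). MRPL11 (uL10, at the base of the stalk that binds translation factors) fell by 0.37 ± 0.06 (adjusted p = 5.49e-05). MRPL36, MRPL16 and MRPL6, of the families bL31, uL16 and uL6, did not pass the test with all arrays. MRPL36 read 1397, 1497 and 1336 untreated and 1565, 1451 and 1463 treated, and its log2 difference of 0.08 had a 95% interval of -0.04 to 0.21. The difference was 0.10 (interval -0.04 to 0.25) for MRPL16 and -0.16 (interval -0.33 to 0.02) for MRPL6. Without untreated replicate 2 MRPL16 passed, at 0.16 ± 0.07 (adjusted p = 0.0436). MRPL6 was the 1 member that missed the threshold although its groups did not overlap. Its difference was 0.03 without normalization.

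The 3 large subunit members that rose were MRPL22, MRPL24 and MRPL28. MRPL22, of the family uL22 that lines the tunnel through which the new protein leaves, read 696, 831 and 725 untreated and 1052, 1281 and 1221 treated. All treated arrays were above all untreated ones, and the change was 0.66 ± 0.10 (adjusted p = 2.97e-05), a 1.58-fold rise. MRPL22 faces the cytosolic ribosomal protein gene RPS3 end to end, and the RPS3 message fell by 1.62 ± 0.09 on the same arrays. MRPL24 (bL28), which stands next to the cytosolic gene RPL36A, read 691, 872 and 747 untreated and 1064, 903 and 1098 treated. Its highest untreated and lowest treated array were close, and the change was 0.41 ± 0.11 (adjusted p = 0.00473), while RPL36A fell by 1.51. MRPL28 (mL40) rose by 0.23 ± 0.07 (adjusted p = 0.00783).

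Small subunit members moved in a narrower range than large subunit members, from -0.56 to 0.57. RSM18 (bS18) was the 1 small subunit member that rose. It read 2115, 2142 and 2039 untreated and 3181, 3037 and 3151 treated, with no array of one group near the other, and changed by 0.57 ± 0.06 (adjusted p = 9.81e-07). MRPS5 (uS5) fell by 0.56 ± 0.14 (adjusted p = 0.00238). Its untreated arrays were widely spread, at 679, 804 and 516, and the lowest of them was near the highest treated array in 501, 382 and 458. RSM26 (mS42) fell by 0.50 ± 0.09 (adjusted p = 0.000256). MRPS12, of the family uS12 beside the decoding site, fell by 0.41 ± 0.08 (adjusted p = 0.000207), from 2320 to 2659 untreated to 1765 to 1963 treated.

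The other falls of small subunit members were smaller. MRPS16 (bS16) fell by 0.32, RSM22, a methyltransferase-like protein linked to the small subunit, by 0.29, and RSM27 (mS33) by 0.29. MRPS8 (uS8) fell by 0.25 and MRPS28 (uS15) by 0.24. RSM27 no longer passed without untreated replicate 2 (adjusted p = 0.0571), untreated replicate 3 (0.066), treated replicate 1 (0.088) or treated replicate 3 (0.0747). MRPS28 no longer passed without untreated replicate 2 (adjusted p = 0.101) or treated replicate 2 (adjusted p = 0.0946). RSM24 (mS35) passed at -0.22 ± 0.09 (adjusted p = 0.0348) although its groups overlapped, and did not pass without untreated replicate 2 (adjusted p = 0.129).

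In all, the groups did not overlap for 31 of the 54 members, against 82.5% of all genes. The 23 members that did not pass had log2 differences of -0.16 to 0.22, and their 95% intervals reached from -0.36 to 0.43. A change of over 1.35-fold thus lay outside the interval of each of these 23. The counts changed with the setting. Without normalization 3 members rose and 6 fell, while 3784 of all 5588 genes were called. When each change had to exceed 1.2-fold in the test 2 members rose and 14 fell, while 3590 of all genes were called. Without untreated replicate 2 it was 8 members that rose and 23 that fell, with a median of -0.15, while 42.4% of all genes rose and 39.0% fell. The calls gained were the rises of MRPL16, RSM10, MRPS17 and RSM23, those lost were the falls of MRPL51, MRPS28, RSM24 and RSM27, and the counts past 1.5-fold and 2-fold stayed at 9 and 1. MRPL39, MRPL20, MRPL37, MRPL1, MRPL49, MRPL31, MRPL22, MRPL24 and RSM18 passed without normalization as well.

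In the large subunit 20 of 34 genes changed, 3 higher and 17 lower, and in the small subunit 11 of 20, 1 higher and 10 lower, against 81.2% of all genes, 41.9% higher and 39.2% lower. The medians were -0.19 and -0.16. Without untreated replicate 2 the large subunit had 4 higher and 16 lower with a median of -0.17, and the small subunit 4 higher and 7 lower with a median of -0.09. The difference in counts between the subunits was not tested. The mean log2 change of the members was lower for the large subunit by 0.14. Among members MRPL39 and 7 more large subunit genes had falls beyond the lowest small subunit value of -0.56. This limit did not hold for small subunit proteins with symbols of another form, given below. Their changes ran from -1.38 to 0.47, and those of such large subunit proteins from -0.99 to 0.57. Relative to the untreated mean, the 3 treated wild-type arrays gave -0.26, -0.27 and -0.27 for the large subunit and -0.09, -0.15 and -0.13 for the small subunit. The large subunit was thus lower on each of these arrays by 0.17, 0.11 and 0.14. On the untreated arrays the same difference, large minus small, was -0.04, -0.02 and 0.06. It was -0.16 to -0.11 when single arrays were left out. No p is given, since the members were chosen as a list.

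**Figure D3:**
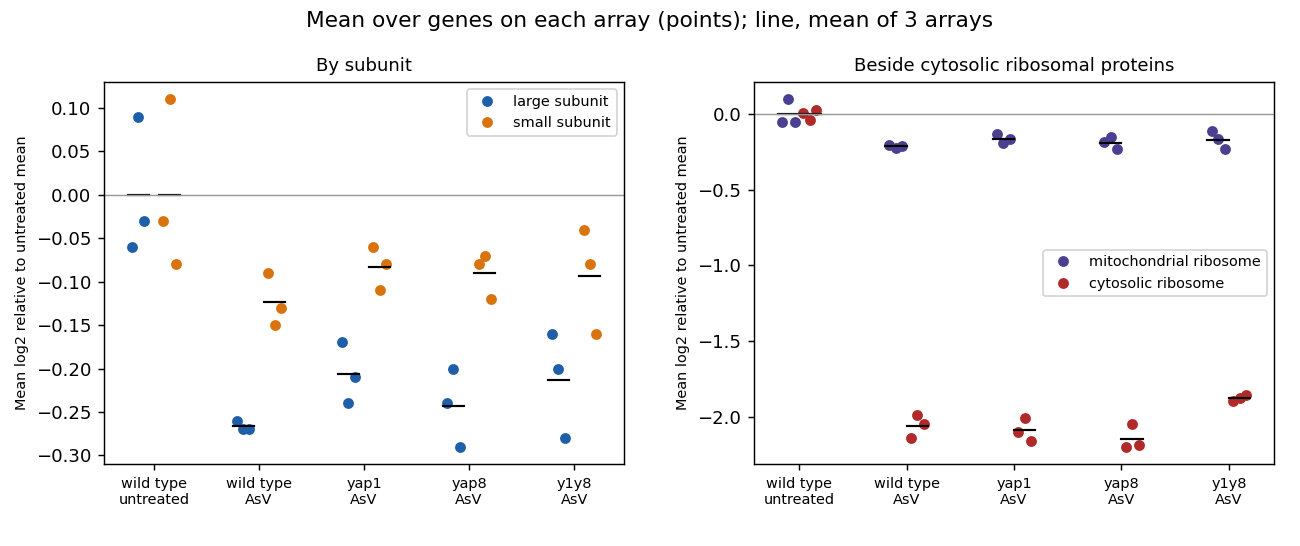
Points give the mean over genes of log2 signal on each array relative to the mean of the untreated arrays (y axis), by group (x axis), with a line at the mean of 3 arrays. On the left the large subunit lies below the small subunit on all 12 treated arrays, and on the right the mitochondrial means lie between -0.23 and -0.11 on these arrays while the cytosolic ones lie between -2.20 and -1.86.

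By origin of the family, as the RefSeq gene names give it, 24 members belong to families found in all ribosomes, 9 to families shared with bacteria, 20 to mitochondrial families and 1, RSM22, has no family name. Of the 24 in universal families 9 changed, 1 higher and 8 lower, with a median of -0.09. Of the 9 bacterial ones 8 changed, 2 higher and 6 lower, with a median of -0.42, a count near the 81.2% called among all genes. Of the 20 mitochondrial ones 13 changed, 1 higher and 12 lower, with a median of -0.23. MRPL39, MRPL49, MRPL8 and MRPL50, at -1.56, -0.70, -0.65 and -0.64, and the risers RSM18 and MRPL24 were all of the bacterial kind. Large changes were not confined to it. MRPL20 (-0.79), MRPL37 (-0.71) and MRPL31 (-0.70) are of mitochondrial families. MRPL1 (-0.71) and the largest riser, MRPL22 (0.66), are of universal ones. Without untreated replicate 2 the counts were 4 higher and 7 lower, 2 and 6, and 2 and 9, in the same order. These groups are small and were set side by side without a test.

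Other proteins of the mitochondrial ribosome carry symbols of another form. Of 11 measured in the large subunit 3 rose and 7 fell, with a median of -0.23. Of 13 in the small subunit 3 rose and 6 fell, with a median of -0.17. The shares that changed were 90.9% and 69.2%, against 81.2% of all genes, 41.9% higher and 39.2% lower. The largest falls were MRP2 (uS14) at -1.38 ± 0.12, MNP1 (the bL12 stalk protein) at -0.99 ± 0.09, IMG1 (bL19) at -0.95 ± 0.06 and NAM9 (uS4) at -0.67 ± 0.10. MRP1 fell by 0.48 ± 0.10, and YML6 (uL4) rose by 0.57 ± 0.09.

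Lists of genes that act with the ribosome were described in the same way. Among all genes 81.2% changed, 41.9% higher and 39.2% lower. The counts of these lists were not tested against those shares, and are not read as particular to the lists. Of 9 mitochondrial translation factors 1 rose and 4 fell, among them the elongation factors TUF1 (-0.80 ± 0.11) and MEF1 (-0.78 ± 0.07), and GUF1, a ribosome-binding GTPase (-0.66 ± 0.13). Of 12 mitochondrial aminoacyl-tRNA synthetases 3 rose and 6 fell, with the asparagine enzyme SLM5 at 1.77, the isoleucine enzyme ISM1 at -1.25 and the lysine enzyme MSK1 at -1.08. Of 16 translational activators, proteins that serve mitochondrial messages, 6 rose and 8 fell. ATP22, which acts on the ATP6 message, rose by 1.58, PET309, which acts on COX1, changed by -1.56, and AEP2, which acts on the message of ATP synthase subunit 9, by -1.48. Of 13 genes for assembly, processing and membrane docking 2 rose and 6 fell, with the GTPase gene MTG1 at 1.43, the ribosomal RNA methyltransferase gene MRM2 at 1.27 and the membrane insertase gene OXA1 at -1.01. Of 6 regulators 2 rose and 2 fell. HAP4, the activating subunit of the respiratory gene activator, fell by 1.61, the haem-responsive HAP1 by 1.39, and HAP5 rose by 1.19. PUF3 did not pass, at -0.44 ± 0.32 (adjusted p = 0.218). Without untreated replicate 2 each count of these lists and of the other ribosomal proteins moved by at most 1 gene, with 2 translation factors higher in place of 1.

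Across the 15 arrays members followed one another in part. Each member was set against the mean of the other 53, and r was above 0.5 for 32 members, below 0 for 11, and 0.63 at the median. The lowest values were those of RSM18 (-0.781) and MRPL22 (-0.753), which rose while the mean was lower. The 5 genes outside the list most like the mean of all members were CMC1 (r = 0.96), MRX14 (0.953), COA4 (0.949), COA3 (0.933) and MPD1 (0.932). CMC1, COA3 and COA4 act in the assembly of cytochrome c oxidase, MRX14 encodes a large subunit protein of the mitochondrial ribosome under another symbol, and MPD1 encodes a disulfide isomerase of the endoplasmic reticulum. These r describe 15 arrays that share the same 5 groups, and carry no p. The share of all genes with such r is not given here, so the counts are not read as particular to the members. CMC1 is the divergent neighbour of MRPL31, and the pair changed by -0.65 and -0.70 after arsenate.

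In treated cells, yap1 was set against wild type to ask for the effect of losing Yap1. Few of these genes differed. In yap1 against treated wild type 5 of the 54 members changed, against 19.0% of all genes. Of these 4 were higher (background 9.61%) and 1 was lower (background 9.34%). The range of the members was -0.32 to 0.36, and the median was 0.04, against 0.05 for all genes.

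MRPL17 (mL46) was the largest rise. It read 758, 696 and 740 in treated wild type and 988, 918 and 902 in yap1, with every yap1 array above every wild-type one. The change was 0.36 ± 0.06 (adjusted p = 0.0014). Its untreated arrays read 1014, 1070 and 945, so 1 of the yap1 arrays lay within the untreated range and the others below it. MRPL19, of the family uL11 at the base of the factor-binding stalk, was the 1 fall. It read 752, 819 and 720 in treated wild type and 656, 578 and 600 in yap1, again without overlap, a change of -0.32 ± 0.06 (adjusted p = 0.00333). In wild type, treated and untreated arrays had differed by 0.01 for MRPL19 (95% interval -0.13 to 0.15). The authors' deposited table for yap1, of 553 rows, held MRPL19 as its 1 entry from these genes, with a fold change of -1.31 and bounds of -1.23 and -1.40.

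The other 3 calls in yap1 were weak. MRPL4 (uL29) was higher by 0.24 ± 0.07 (adjusted p = 0.0281), MRPL28 by 0.23 ± 0.07 (adjusted p = 0.0297) and RSM28 (mS46) by 0.20 ± 0.06 (adjusted p = 0.0301). Leaving out 1 array ended the MRPL4 call for treated wild-type replicates 1 and 2 and yap1 replicates 1 and 3 (adjusted p = 0.0669 to 0.102). It ended the MRPL28 call for any treated wild-type array and yap1 replicates 1 and 3 (adjusted p = 0.055 to 0.117), and the RSM28 yap1 call for treated wild-type replicates 1 and 2 and yap1 replicates 2 and 3 (adjusted p = 0.078 to 0.107). The replicate block also ended the MRPL28 call (adjusted p = 0.0509), and median centring (0.0509) and a fit of these groups alone (0.0626) the RSM28 call. MRPL17 and MRPL19 passed with each array left out. Without normalization their differences were of like size, 0.33 and -0.36, but did not pass (adjusted p = 0.587 and 0.423), nor did either pass in the test against 1.2-fold.

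**Figure D4:**
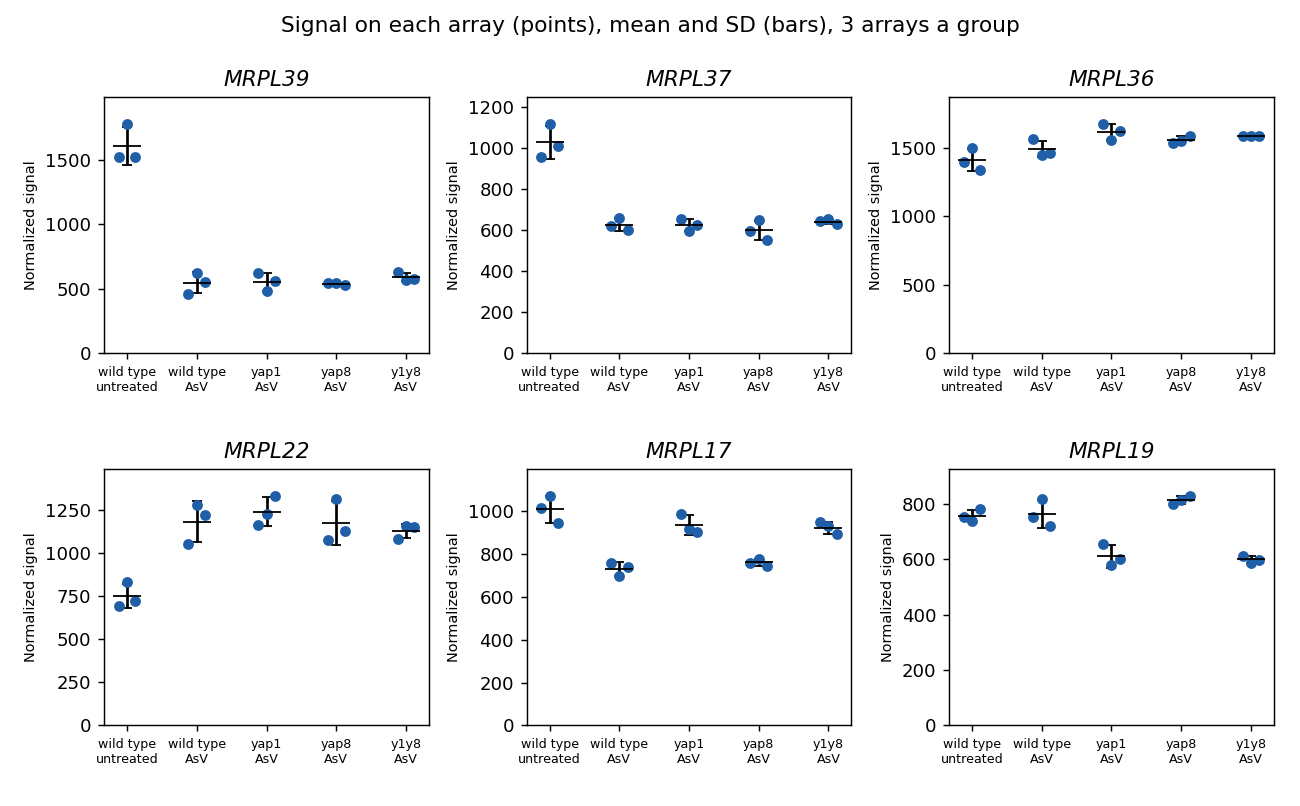
Normalized signal (y axis, from 0) of 6 members on each of the 15 arrays by group (x axis), with the mean and SD of 3 arrays. MRPL39 and MRPL37 are low on all treated arrays, MRPL36 stays between 1336 and 1674, and MRPL22 is high on all treated arrays. Among treated groups MRPL17 and MRPL19 differ between the strains with Yap1 (wild type, yap8) and those without it (yap1, y1y8). Untreated wild type, which has Yap1, reads 945 to 1070 for MRPL17, near or above yap1 and y1y8.

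No effect of losing Yap8 was detectable in these genes. In yap8 against treated wild type none of the 54 members passed in limma, and none had an unadjusted p under 0.05, against 0.125% of all genes called. The members ranged from -0.08 to 0.15, and their 95% intervals from -0.37 to 0.42, so a change of over 1.34-fold lay outside every interval. The smallest p-values belonged to RSM28 (0.12 ± 0.06, adjusted p = 0.775), MRPL19 (0.10 ± 0.06, adjusted p = 0.904) and MRPS9 (uS9, 0.09 ± 0.07, adjusted p = 0.964). The yap8 arrays read 760, 779 and 743 for MRPL17 and 800, 816 and 828 for MRPL19. Those of treated wild type were close by or overlapped them.

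Loss of both regulators was compared with the same treated wild-type arrays, so its values are not independent of those for yap1. In y1y8 3 of the 54 members changed, against 20.0% of all genes. Of these 2 were higher (background 10.1%) and 1 was lower (background 9.88%). MRPL17 read 948, 931 and 893 in y1y8, a change of 0.34 ± 0.06 (adjusted p = 0.00189), and MRPL19 read 613, 587 and 599, a change of -0.35 ± 0.06 (adjusted p = 0.00176). In both cases the 3 arrays lay beyond those of treated wild type. RSM28 was higher by 0.19 ± 0.06 (adjusted p = 0.0378), and this was lost under 13 of the 24 alternatives. The 7 that left out 1 array were those without treated wild-type replicates 1 and 2, yap1 replicate 3, yap8 replicate 1 and each y1y8 array (adjusted p = 0.0517 to 0.122).

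The comparison of y1y8 with yap8 asks for the effect of Yap1 with other arrays as the control. There 3 of the 54 members changed, against 19.2% of all genes. Of these 2 were higher (background 9.22%) and 1 was lower (background 9.97%). MRPL19 was lower by 0.44 ± 0.06 (adjusted p = 0.00023), from 800 to 828 in yap8 to 587 to 613 in y1y8, the largest difference of any member between treated groups. MRPL17 was higher by 0.28 ± 0.06 (adjusted p = 0.00675). MRPS18 (uS11) was higher by 0.21 ± 0.06 (adjusted p = 0.0372), a call that 12 of the 24 alternatives ended. Among them were median centring (adjusted p = 0.0544), the replicate block (0.0586), a fit of these groups alone (0.114), the test against 1.2-fold (1) and no normalization, where the difference was 0.08. Leaving out 1 array ended it for untreated replicate 3, treated wild-type replicates 1 and 3, yap8 replicates 1 and 3, and y1y8 replicates 1 and 3 (adjusted p = 0.0501 to 0.156). Without normalization MRPL19 differed by -0.57 (adjusted p = 0.0632) and MRPL17 by 0.16 (adjusted p = 0.931), and neither passed.

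**Figure D5:**
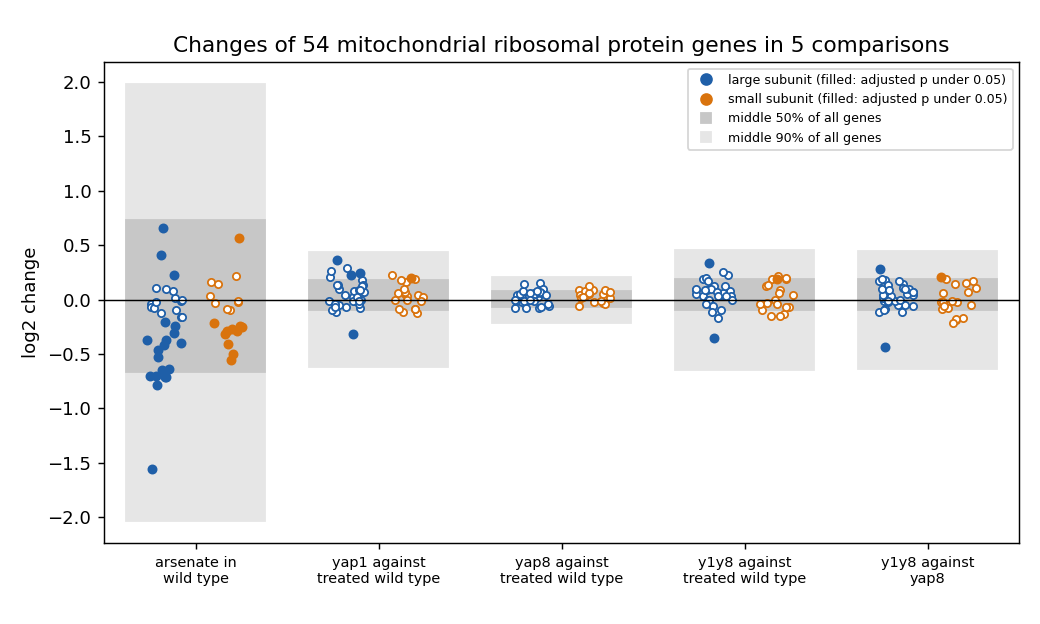
The log2 change (y axis) of each of the 54 members in 5 comparisons (x axis), blue for the large and orange for the small subunit, filled where adjusted p was under 0.05, over grey bands that hold the middle 50% and 90% of all genes. Members spread from -1.56 to 0.66 after arsenate, from -0.32 to 0.36 in yap1 and from -0.08 to 0.15 in yap8.

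Between y1y8 and yap1, which differ by Yap8, none of the 54 members passed in limma (0.0895% of all genes did), and 1 had an unadjusted p under 0.05. That was MRPL24, at -0.33 ± 0.11 (adjusted p = 0.512), followed by MRPL4 at -0.12 and MRPL15 (mL57) at 0.12. The arrays of MRPL24 read 1245, 1305 and 1195 in yap1 and 1036, 1104 and 850 in y1y8, and did not overlap. The 95% intervals of the members in this comparison reached from -0.58 to 0.43. In the interaction, which asks whether y1y8 departs from the sum of both single losses, none of the members passed (0.0537% of all genes did). None had an unadjusted p under 0.05. The 95% intervals were wider here and reached from -0.65 to 0.63, so only a departure of over 1.57-fold lay outside every interval. RSM28, MRPL24 and RSM25 (mS23) had the smallest p-values, with -0.13 ± 0.08, -0.25 ± 0.16 and -0.20 ± 0.13 (adjusted p = 1 for each).

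Over the 5 groups the mean of all members relative to untreated wild type was -0.21 (SD 0.01) in treated wild type, -0.16 (SD 0.03) in yap1, -0.19 (SD 0.04) in yap8 and -0.17 (SD 0.06) in y1y8, with n = 3 arrays each. The untreated arrays themselves lay at -0.05, 0.10 and -0.05, the highest being replicate 2. All 4 treated groups were below all untreated arrays, and their own order did not exceed the spread of the arrays, which ran from -0.23 to -0.11.

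The authors' deposited table of treated against untreated wild type lists 3702 of 10928 probe sets, a total that includes controls and other species. Of the 54 members 8 are listed, 2 with a positive and 6 with a negative fold change. The authors' deposited table gives MRPL39 a fold change of -2.42 (bounds -2.16 and -2.71), MRPL31 -1.88, MRPL20 -1.85, MRPS5 -1.37 and MRPL24 1.62. The fit gave MRPL31 (mL60) a fall of 0.70 ± 0.10 (adjusted p = 2.7e-05), from 1685 to 2083 untreated to 1136 to 1220 treated. The sign was the same in the deposited table and in the fit for all 8. Both rest on the same arrays, so the shared sign is no independent support. Members that passed in the fit but are not among the 8 include MRPL22 (0.66), MRPL37 (-0.71) and MRPL49 (-0.70). The authors' table is named for a lower bound of 1.2, while the fit used adjusted p without a limit of size. Its 8 entries and the calls of the fit are thus unlike selections. The authors' deposited table for yap8 held none of these genes among its 25 rows.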

How the data were processed

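RNA extracted with hot phenol was labelled with biotin and hybridised to Affymetrix arrays, per the labels' protocols. The authors deposited for each array a linear intensity (Signal) and a detection call for 10928 probe sets. These were not scaled between arrays, as their differing medians show. Partek, with no version, is named in the submitters' processing notes. The sources used here do not give how probes were summarised. The deposited series matrix held the same intensity values. The authors' deposited comparison tables hold a score with bounds, a linear fold change given a minus sign where the treated or mutant group was lower.

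Probe sets were named from the platform annotation (5498) or the deposited tables (140), with RefSeq symbols of assembly R64. For genes with several probe sets the brightest was taken, leaving 5588 genes. Before this choice, intensities of all 10928 probe sets were quantile normalized, floored at 1 and put on a log2 scale. Among them 1746 were for other species, 3330 were unnamed and 213 were controls. limma 3.58.1 (R 4.3.3) was fitted to all 15 arrays, two-sided, with Benjamini-Hochberg adjustment over all genes and a threshold of 0.05. The fit was tested on simulated data. For arrays, their number limits the precision.

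The members and lists were chosen with earlier results of these data known. Members named were, in arsenate-treated wild type, the 5 largest rises and falls of each subunit among those past the threshold, all against the main direction and 10 with standard roles. Elsewhere up to 8 called members, or the 3 smallest p-values, were named. In each other list up to 3 called genes were named by size. MRPL31, MRPL8, MRPL50, RSM24 and the neighbouring genes were chosen after their values were seen. Alternatives were median centring, no normalization, an offset of 16, a presence filter of 3 arrays, mean of probe sets, trend with robust spread, a test against 1.2-fold, fits of single contrasts, the replicate number as a block and leaving out each array. Promoter and protein sequences were not used here.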

Additional observations from a re-analysis of the deposited data

How the results depend on the processing

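Median centring, an offset of 16, the presence filter, the mean of probe sets, trend with robust spread, single-contrast fits and the replicate block kept the counts of arsenate in wild type within 1.5 times of 4 higher and 27 lower. Over all genes these settings gave 4448 to 4543 calls. No normalization gave 3 and 6, with 3784 of all 5588 genes called, against 4536 in the main fit. It moved the median of all genes from 0.03 to 0.15, and that of the members from -0.19 to -0.03. MRPL6 then turned from -0.16 to 0.03. The test against 1.2-fold gave 2 and 14, with 3590 of all genes called. Leaving out single arrays gave 4 to 8 higher and 23 to 27 lower, with 4354 to 4566 of all genes called. Without untreated replicate 2 the counts were 8 and 23, with 4550 of all genes called. For yap1 the 4 higher and 1 lower became 0 and 0 with no normalization and in the test against 1.2-fold. Calls over all genes went from 1059 to 293 and 295 in these settings. With single arrays left out there were 1 to 4 higher and 1 lower for yap1, and 752 to 1317 calls over all genes. It was 1 higher when treated wild-type replicates 1 or 2 or yap1 replicate 3 were dropped and 2 higher when yap1 replicate 1 was. The replicate block gave 3 higher and 1 lower for yap1, ending the MRPL28 call. For y1y8 against treated wild type the 2 higher became 1 with median centring, in the single-contrast fit and with the replicate block. Over all genes these settings gave 907, 1093 and 1033 calls, against 1115 in the main fit. Both member counts became 0 with no normalization and in the test against 1.2-fold, where 321 and 342 of all genes were called. Single arrays left out gave 1 to 4 higher and 1 lower, with 4 higher without untreated replicate 2. It was 1 higher when treated wild-type replicates 1 or 2, yap1 replicate 3, yap8 replicate 1, or y1y8 replicates 1 or 3 were dropped. Calls over all genes with single arrays left out ran from 799 to 1383. For y1y8 against yap8 the 2 higher became 1 with median centring, in the single-contrast fit and with the replicate block, the 1 lower became 2 with trend and robust spread, and both counts became 0 with no normalization and in the test against 1.2-fold. Single arrays left out gave 1 to 2 in each direction, with 2 lower without untreated replicate 2, yap1 replicate 2 or y1y8 replicate 1. Counts over all genes under these alternatives are not given for y1y8 against yap8. The comparisons of yap8 with treated wild type and of y1y8 with yap1, and the interaction, had no call under any of these alternatives. No pairing of arrays by replicate number was detected, and the labels do not say whether same-numbered arrays belong together. The 30 same-numbered pairs from different groups had deviations correlated at -0.329 to 0.408 (median 0.014), against a median of 0.008 for other numbers. The large minus small difference of -0.14 lay between -0.16 and -0.11 with single arrays left out. The cause of these moves was not tested.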
